A study of Mus musculus with 20 samples.

Results

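Pancreatic islets that lacked both mitofusins in β-cells (β-Mfn1/2DKO) were compared with islets that lacked Mfn1 alone (β-Mfn1KO), so that the comparison reads the loss of Mfn2 where Mfn1 is already gone. The 9 libraries were chosen by the genotype in their labels, 5 of β-Mfn1/2DKO and 4 of β-Mfn1KO, out of 20 in the series, which also holds 6 Ctrl and 5 β-Mfn2KO libraries of bulk islet RNA. Every gene in the deposited table, 28632 in all, was tested. Both groups carried Ins1-Cre and floxed Mfn1 alleles in which exon 4 is removed, and the β-Mfn1/2DKO mice carried in addition floxed Mfn2 alleles in which exon 6 is removed. Ins1-Cre is a knock-in at an insulin gene that is active in β-cells from early life, so the other cells of the islet keep both genes and the comparison shows a lasting state rather than an acute loss. The Ctrl libraries are labelled wild type, while the study's methods pool mice with Ins1-Cre alone and mice with either floxed gene but no Cre under that name, and β-Mfn2KO mice lost Mfn2 alone. All mice were of the C57BL/6N background and 12 weeks old, and isolated islets spent 24 h in culture before RNA was taken. The β-Mfn1KO group held 3 female mice and 1 male, and the β-Mfn1/2DKO group 2 female mice and 3 male.

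Mfn1 and Mfn2 are related GTPases of the outer mitochondrial membrane that tether and fuse mitochondria, and Mfn2 also lies at contacts between mitochondria and the endoplasmic reticulum (ER). Mitochondria keep their own DNA (mtDNA), which encodes core subunits of the respiratory chain and ATP synthase, while the other subunits come from the nucleus. β-cells depend on this chain to couple glucose to insulin release, and mitochondrial or ER stress in many cells raises a common set of genes through the transcription factor ATF4, the integrated stress response.

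Depth differed between the groups throughout. The β-Mfn1KO libraries held 15745680 to 16685381 counts and the β-Mfn1/2DKO libraries 65533388 to 122947313, so depth and genotype cannot be told apart. Digestive enzyme genes of acinar cells, the exocrine cells around islets, took 0.0162 to 0.102% of counts in β-Mfn1KO and 0.0775, 0.130, 0.0794, 2.98 and 7.61% in β-Mfn1/2DKO replicates 1 to 5. Results are therefore also given without β-Mfn1/2DKO replicates 4 and 5. Insulin genes led the islet identity of all 9 libraries, but Ins1 and Ins2 together took 13.1 to 16.1% of counts in β-Mfn1KO and 5.05 to 7.55% in β-Mfn1/2DKO, while glucagon took 2.93 ± 0.177% (SD, n = 4) and 4.05 ± 0.759% (SD, n = 5). In bulk islets, fewer cells of a type and less RNA per cell cannot be told apart.

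The targeted genes were read first. Values per library are normalized counts, the deposited counts scaled to a common library size, and changes are log2 fold changes of β-Mfn1/2DKO over β-Mfn1KO ± SE from edgeR's quasi-likelihood fit, with p adjusted by Benjamini-Hochberg over all 28632 genes. Mfn2 stood at 4399, 3869, 4607 and 4535 in β-Mfn1KO and at 2022, 2082, 2062, 2131 and 2124 in β-Mfn1/2DKO. All 5 double knockout libraries lay below all 4 others, a change of −1.06 ± 0.08 (adjusted p = 1.2e-08). Counts per gene do not separate transcripts of cells without Cre from transcripts that lost only exon 6. Mfn1 stood at 770.4, 621, 631 and 674 in β-Mfn1KO and at 690.3, 690.5, 687, 856 and 1062 in β-Mfn1/2DKO. The groups overlapped, with a change of 0.24 ± 0.11 that missed the threshold (adjusted p = 0.14), and both lay under the 1670.2 ± 114 (SD, n = 6) of Ctrl. The change of Mfn1 depended on the fit. It passed with counts scaled by library totals (adjusted p = 0.0046) or thinned to equal depth (0.033). Leaving out β-Mfn1/2DKO replicate 1, 2 or 3 also let it pass (0.045 to 0.049). With the authors' factors its sign turned (−0.07), and in the other alternatives it did not pass.

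The 13 mRNAs encoded by mtDNA were all lower in β-Mfn1/2DKO than in β-Mfn1KO. Together they took 1.77, 1.95, 1.86 and 1.53% of counts in β-Mfn1KO and 0.530, 0.619, 0.637, 0.670 and 0.722% in β-Mfn1/2DKO. The highest double knockout library was well below the lowest β-Mfn1KO library. The β-Mfn1KO mean was 1.78 ± 0.180% (SD, n = 4), and the β-Mfn1/2DKO mean of 0.636 ± 0.0705% (SD, n = 5) was 0.357 times that of β-Mfn1KO. The difference of −1.14 percentage points gave p = 0.0159 (exact permutation test, two-sided), the smallest p that its 126 splits allow. For the single mRNAs, 13 of 13 passed the test lower, with a median of −1.71, where 7.69% of all genes tested passed lower and 17.4% passed in either direction. The median over the 15267 genes with enough counts for a filter on low values was 0.04. Without replicates 4 and 5 all 13 still passed, with a median of −1.80, where 4.98% of all genes passed lower.

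Among complex I subunits, mt-Nd1 stood at 70165, 77780.2, 69503 and 60281 in β-Mfn1KO and at 19175, 21611, 20261, 22452 and 24635 in β-Mfn1/2DKO. The groups lay far apart, at −1.68 ± 0.11 (adjusted p = 1.5e-09). mt-Nd6, the one mRNA encoded on the light strand, stood at 16026, 15999.8, 14904 and 14273 against 4062, 4982, 4375, 4340.1 and 4342, at −1.79 ± 0.10 (adjusted p = 7e-11). Strand handling of the counts is not given, so reads from the opposite strand at mt-Nd6 cannot be set apart. Changes of the other complex I mRNAs were −1.85 for mt-Nd2, −2.11 for mt-Nd3, −1.74 for mt-Nd4, −1.87 for mt-Nd4l and −1.58 for mt-Nd5.

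Beyond complex I, mt-Cytb of complex III stood at 90104, 96802, 89759 and 76982 in β-Mfn1KO and at 21585, 26666, 26709.8, 29392 and 34207 in β-Mfn1/2DKO (−1.67 ± 0.11, adjusted p = 1.6e-09). mt-Co1, the catalytic subunit of complex IV, stood at 206451, 228897, 206054 and 177591 against 55051, 66846, 68594, 75645 and 84488 (−1.55 ± 0.10, adjusted p = 1.6e-09). None of these values overlapped between groups. The other subunits of complex IV changed by −1.71 (mt-Co2) and −1.64 (mt-Co3), and those of ATP synthase by −1.58 (mt-Atp6) and −1.91 (mt-Atp8). Nuclear copies of mtDNA could share reads: over 90% of the 75-base stretches of 5 of these mRNAs occur in another annotated gene, but in 6 the share was under 10%, and those 6 changed by −1.91 to −1.58. mt-Atp8 overlaps mt-Atp6 on one strand. The 2 ribosomal RNAs of mtDNA also fell, with a median of −1.28.

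**Figure D1:**
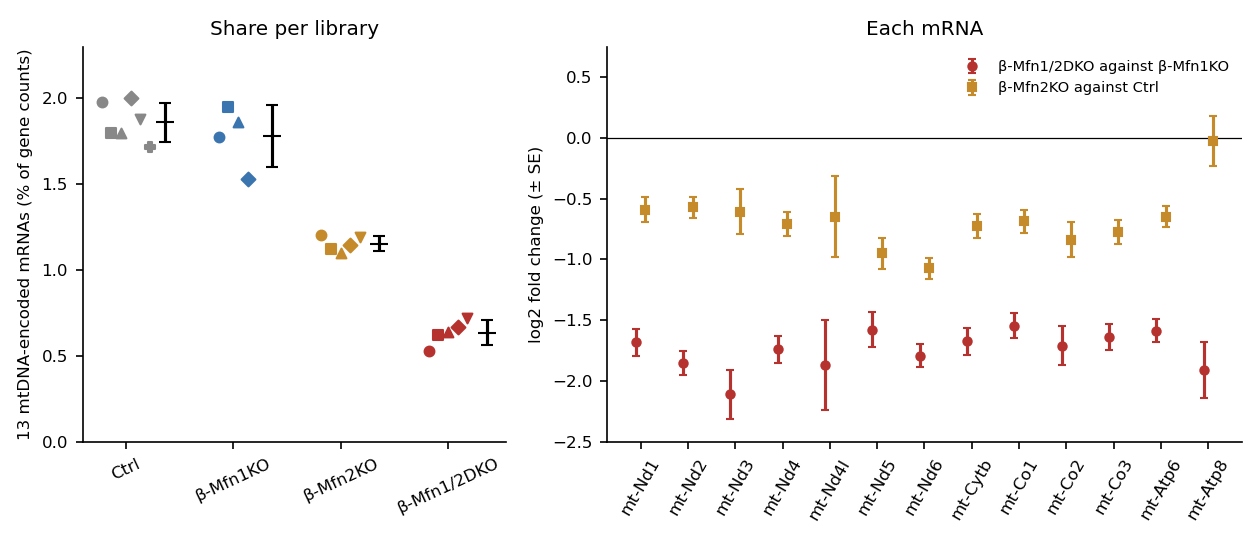
Left, share of gene counts taken by the 13 mtDNA-encoded mRNAs (y axis, percent) in each library of the 4 groups, a marker per library, with mean ± SD. Right, log2 fold change ± SE of each mRNA for β-Mfn1/2DKO against β-Mfn1KO and for β-Mfn2KO against Ctrl. The 5 β-Mfn1/2DKO libraries sit between 0.530 and 0.722%, all below the β-Mfn1KO range of 1.53 to 1.95%, and the 13 red points lie between −2.11 and −1.55.

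The nuclear-encoded partners of these subunits fell by smaller amounts where they passed. Of 38 complex I genes, 14 fell and none rose, with a median of −0.20, and of 38 genes of complexes II to V, 23 fell and none rose, with a median of −0.27, where 7.69% of all genes and 13.5% of those with enough counts passed lower. Without replicates 4 and 5 the numbers that fell were 8 and 12, where 4.98% of all genes passed lower. With plain total-count scaling, which moved the median of the genes with enough counts from 0.04 to 0.20, 4 complex I genes rose and 5 fell, and in complexes II to V 1 rose and 6 fell. Ndufa4 stood at 3799, 4168, 3256 and 3922 in β-Mfn1KO and at 2036, 2323, 1998, 2333 and 2033 in β-Mfn1/2DKO (−0.82 ± 0.09, adjusted p = 8.4e-07). Ndufa1 fell by 0.85, Ndufc2 by 0.50, the ATP synthase subunit Atp5g1 by 0.76, Uqcrb of complex III by 0.60, Cox7b of complex IV by 0.57 and Sdhc of complex II by 0.44 on the log2 scale. Uqcrb shares 16.7% of its stretches with other genes.

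Across the genome, 1921 genes, 6.71% of those tested, passed an adjusted p of 0.05 with a fold over 1.5, of which 1156 (4.04%) were higher and 765 (2.67%) lower in β-Mfn1/2DKO. Genes called in this way are referred to below as called. In 1539 of them the 9 libraries did not overlap between groups, while 18.2% of all genes and 29.0% of those with enough counts did not overlap. Without replicates 4 and 5, 1277 genes (4.46%) were called, 718 (2.51%) higher and 559 (1.95%) lower, of which 1158 were among the 1921. At 50 of the 1921 called genes the Ctrl library replicate 1 went with β-Mfn1KO, in that these 5 libraries lay all above or all below the other 15. The pattern was counted among called genes only. Whether 50, or the 19 on chromosome 4, is more than among all genes was therefore not tested. Of these 50 genes 19 are on chromosome 4, 16 of them within 5 Mb of Mfn2, and Rab6b, Eno1b, Eno1, Kdr, Zfp990, Zfp991, Masp2, Miip and Znf41-ps, given below, are among the 50. The most changed genes are given next, chosen by fold among called genes that averaged 100 normalized counts or more, did not overlap, held their call without replicates 4 and 5 and marked no other cell type.

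After Zfp990 and Eno1b, described below, Areg had the largest rise among these genes. It encodes amphiregulin, a growth factor ligand of the EGF receptor, and stood at 39.1, 22, 49.7 and 66.5 in β-Mfn1KO and at 2882, 2588, 2698, 3139 and 2919.5 in β-Mfn1/2DKO (5.998 ± 0.88, adjusted p = 3.9e-05). All 5 double knockout libraries were close to each other and far above the rest. In β-Mfn2KO its mean was 515.7 ± 899 (SD, n = 5), a spread above the mean. Of 14 EGF family ligands and receptors 5 rose and none fell, 2 without replicates 4 and 5, and the ligand Btc rose by 1.85 ± 0.43 (adjusted p = 0.0036). With all libraries 9.67% of all genes passed higher.

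The glutamine transporter Slc38a3 stood at 5.58, 13.8, 4.97 and 13.9 in β-Mfn1KO and at 203, 138, 149.6, 318 and 620.5 in β-Mfn1/2DKO (4.90 ± 0.72, adjusted p = 3.7e-05). Its highest values were in replicates 4 and 5, without which the change was 4.12. Vrtn, a gene of vertebral patterning, rose by 4.89, Fam196a by 3.44 and Phyhd1 by 3.48, and reads of Phyhd1 overlap another gene over 33.9% of its stretches. Vmn2r3, a vomeronasal receptor gene, rose by 5.70 (13.9 to 44.7 against 805 to 2010.1), and Olfr330, an odorant receptor gene, rose by 3.47 (22 to 27.9 against 221 to 333). Eno1b rose from 14 to 33.3 up to 1915 to 4788, but 80.6% of its stretches occur in other genes, mainly the enolase gene Eno1, which lies 2.33 Mb from Mfn2 and fell by 1.08. Ctrl replicate 1 held 29.1 normalized counts of Eno1b, as β-Mfn1KO did, while Ctrl replicates 2 to 6 (2450.0 to 5821) and β-Mfn2KO (3646 to 4843) were at the double knockout level. The sum of Eno1 and Eno1b was 9992 ± 1277 (SD, n = 4) in β-Mfn1KO and 8785 ± 511 (SD, n = 5) in β-Mfn1/2DKO (log2 ratio of the means −0.19).

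**Figure D2:**
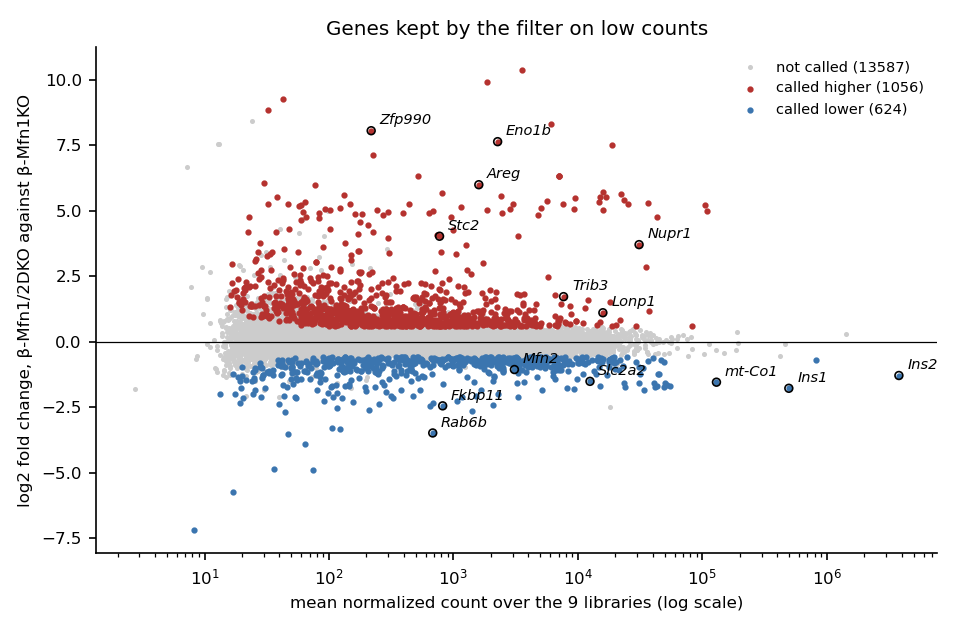
Log2 fold change between β-Mfn1/2DKO and β-Mfn1KO (y axis) against the mean normalized count over the 9 libraries (x axis, log scale), one point per gene for the 15267 genes kept by the filter on low counts. Of these, 1056 were called higher and 624 lower. Among the genes named in the plot, Areg, Eno1b and Zfp990 lie highest and Rab6b lowest.

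Ttyh1, a membrane protein of the tweety family, stood at 3869, 2425, 2190.5 and 2168 in β-Mfn1KO and at 438, 481, 359.9, 514 and 356 in β-Mfn1/2DKO. Replicate 1 of β-Mfn1KO was the highest, and the groups lay well apart (−2.63 ± 0.26, adjusted p = 3.7e-07). Rab6b, a Golgi GTPase, stood at 1412, 1303, 1639 and 1175 against 258, 114, 106, 79.2 and 53 (−3.49 ± 0.68, adjusted p = 0.00073). Ctrl replicate 1, at 1494, was at the β-Mfn1KO level of Rab6b, while Ctrl replicates 2 to 6 (42.5 to 218) and the β-Mfn2KO libraries (44.7 to 110.4) were at the double knockout level. The genes of secreted proteins Nptx2 (−2.45), a neuronal pentraxin, and Pdyn (−2.13), the opioid precursor prodynorphin, also fell, as did Fer1l6 (−2.07). Smaller counts were behind the falls of Dapl1 (−2.30), Rhd (−2.11), the host transcript Mir670hg (−2.09) and the pseudogene Bambi-ps1 (−2.53).

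Genes of β-cell identity and insulin secretion were lower in β-Mfn1/2DKO. Of 26 such genes 18 fell, 1 rose and 7 did not pass, with a median of −0.50, where 7.69% of all genes passed lower. Without replicates 4 and 5, 14 fell, 1 rose and the median was −0.32. The insulin gene Ins1 stood at 807733, 844389, 658270.5 and 960924 in β-Mfn1KO and at 265795, 252446, 231509.9, 239292 and 202304 in β-Mfn1/2DKO (−1.78 ± 0.15, adjusted p = 3.7e-08). Every double knockout library was below every β-Mfn1KO library, although both groups carry the Cre knock-in at Ins1. Ins2 stood at 5798852, 5950378, 4777336 and 6112633 against 2588383, 2459571, 2333519.6, 2324621 and 1858698 (−1.29 ± 0.14, adjusted p = 1.7e-06).

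Slc2a2, the glucose transporter GLUT2 and a member of the same list, stood at 15149, 18051, 23886 and 21289 in β-Mfn1KO and at 8098, 8064, 7695, 4924 and 5521 in β-Mfn1/2DKO (−1.51 ± 0.16, adjusted p = 1.2e-06). The 2 libraries rich in acinar transcripts were the lowest, and without them the change was −1.28. G6pc2, the islet glucose-6-phosphatase and also a member, stood at 66202, 68861, 62875 and 63543 against 29266, 30939.6, 26613, 25418 and 25168 (−1.25 ± 0.11, adjusted p = 1e-07).

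Mafa, a transcription factor of mature β-cells, stood at 39228, 51827, 46012 and 47488 in β-Mfn1KO and at 28431, 22662, 19945, 12484 and 14578 in β-Mfn1/2DKO (−1.23 ± 0.19, adjusted p = 5.4e-05). Replicates 4 and 5 were again the lowest, and the change without them was −0.94. The maturity marker Ucn3, a urocortin, fell by 1.41 and Ero1lb, the β-cell ER oxidase that serves disulfide formation, by 1.73. Of 12 genes of α-, δ- and PP-cells, 11 did not pass and 1 (Pyy) fell, with a median of −0.04. With total-count scaling 2 rose and none fell, and in the female libraries alone 4 rose and none fell.

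Of 20 genes of granule exocytosis and granins, 12 fell, 1 rose and 7 did not pass (median −0.30), and 7 fell without replicates 4 and 5. With all libraries 9.67% of all genes passed higher and 7.69% lower. Sytl4, a granule docking protein, stood at 23439.6, 22874, 29015 and 25838 in β-Mfn1KO and at 12151, 12632, 10673, 9162 and 8416 in β-Mfn1/2DKO (−1.25 ± 0.13, adjusted p = 6.8e-07). The granin Scg3 fell by 0.95, the granule protein Ptprn by 0.70, the GTPase Rab3a by 0.68 and the peptide processing enzyme Cpe by 0.44. Syt7, a calcium sensor, was the member that rose, by 0.21 (adjusted p = 0.018), and it missed the threshold in the 9 libraries alone, without β-Mfn1KO replicate 2, with the authors' factors and with thinned counts (adjusted p from 0.052 to 0.11). Of 7 markers of dedifferentiated or progenitor-like β-cells 4 rose, namely Myc (1.98), Aldh1a3 (1.64), Sox9 (1.42) and Hes1 (0.47), and 2 of them, Myc and Hes1, passed without replicates 4 and 5. Sox9 is also a duct cell marker. Of 18 genes normally low in β-cells 6 rose with all libraries and none without replicates 4 and 5, but 9 rose in the female libraries alone, which also leave out replicates 4 and 5 and where 8.52% of all genes passed higher.

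**Figure D3:**
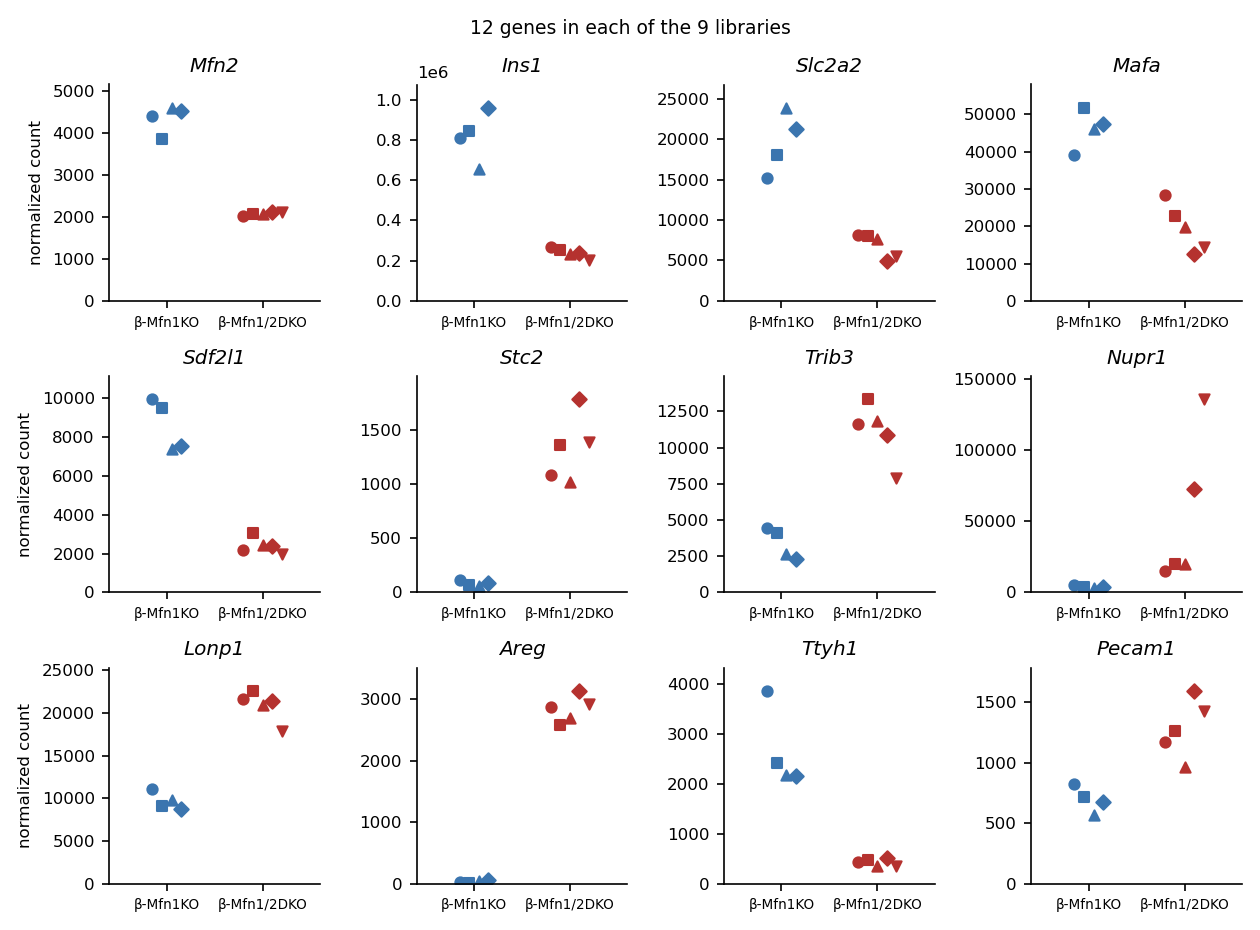
Normalized counts (y axes, each from 0) of 12 genes in the 4 β-Mfn1KO and 5 β-Mfn1/2DKO libraries, one marker per library in replicate order. In each panel the groups do not overlap, and Nupr1 shows 2 double knockout libraries, replicates 4 and 5, far above the other 3.

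Chaperones of the ER were lower in β-Mfn1/2DKO. Of 23 genes of ER folding and the unfolded protein response, 16 fell, 3 rose and 4 did not pass, with a median of −0.64, and the counts were again 16 and 3 without replicates 4 and 5. With all libraries 7.69% of all genes passed lower and 9.67% higher. Sdf2l1, a cochaperone of BiP, stood at 9951, 9514, 7378 and 7562 in β-Mfn1KO and at 2206, 3050.2, 2465, 2413 and 1956 in β-Mfn1/2DKO (−1.83 ± 0.23, adjusted p = 7.3e-06). No library overlapped. Manf, a secreted ER stress protein, fell by 1.22, the cochaperone Dnajb9 by 1.14, Creld2 by 0.97 and Hspa5, which encodes BiP itself, by 0.55, and Hspa5 missed the threshold without replicates 4 and 5 (adjusted p = 0.052). The ER isomerase Fkbp11, outside this list, stood at 1786, 1782, 1028 and 1411 against 283, 360.0, 254, 245 and 230.5 (−2.45 ± 0.27, adjusted p = 1.6e-06). The members that rose were the stress sensor kinase Ern1 (0.63), the degradation factor Edem1 (0.58) and Sel1l. Manf overlaps another gene on the opposite strand.

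Integrated stress response genes rose more often than they fell. Of 27 genes 15 rose, 2 fell and 10 did not pass, with a median of 0.56, where 9.67% of all genes passed higher. Without replicates 4 and 5, 13 rose and 2 fell, where 7.49% of all genes passed higher. The hormone-like protein stanniocalcin 2 (Stc2) stood at 112, 68.7, 59.6 and 85.9 in β-Mfn1KO and at 1088, 1357, 1022, 1783 and 1389 in β-Mfn1/2DKO (4.03 ± 0.38, adjusted p = 2e-07). Every double knockout library was many times higher than every other. The alanine aminotransferase Gpt2 stood at 1583, 1388, 1227 and 1209 against 4577, 5089, 5104, 5335 and 3648 (1.81 ± 0.12, adjusted p = 1.2e-09).

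Trib3, a pseudokinase induced by stress, stood at 4449.5, 4094, 2652 and 2295 in β-Mfn1KO and at 11620.1, 13334, 11855, 10871 and 7922 in β-Mfn1/2DKO (1.72 ± 0.26, adjusted p = 5.3e-05). Ddit3, the transcription factor CHOP, stood at 3615, 3286, 2409 and 2009.7 against 9601, 13039.6, 10719, 8497 and 6243 (1.77 ± 0.33, adjusted p = 0.00045). In both genes replicate 5 was the lowest of the double knockouts and still above β-Mfn1KO. Sesn2, a sestrin that restrains mTORC1, rose by 0.78 and the lipoprotein receptor Vldlr by 0.60.

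Other members of this group were highest in the acinar-rich libraries. Nupr1, a stress-induced chromatin protein also made by acinar cells, stood at 4938, 4152, 3122 and 3892 in β-Mfn1KO and at 15379.9, 19778, 19879.7, 72494 and 135773 in β-Mfn1/2DKO, a change of 3.71 ± 0.66 (adjusted p = 0.00032) with all libraries and of 2.21 (adjusted p = 0.0028) without replicates 4 and 5. The transcription factor Atf3 rose by 1.71, and by 1.04 without them (adjusted p = 0.015). The hormone Fgf21 stood at 8.25 to 27.7 in β-Mfn1KO and at 29.8, 20.7, 25.1, 149.7 and 232 in β-Mfn1/2DKO, and its change of 2.36 (adjusted p = 0.014) became 0.55 without replicates 4 and 5 (adjusted p = 0.50). The part of acinar cells in these values was not tested.

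Asns, asparagine synthetase and one of the stress response genes that fell, stood at 10066, 9456, 8876 and 8577 in β-Mfn1KO and at 6731, 7377, 6631, 7364 and 6972 in β-Mfn1/2DKO, a fall of 0.40 ± 0.10 (adjusted p = 0.0088) that missed the threshold with total-count scaling. Pck2 was the other member that fell. Of 11 genes of serine, one-carbon and proline synthesis 3 fell and none rose, among them Shmt2 (−0.63 ± 0.12, adjusted p = 0.00046), and 1 fell without replicates 4 and 5. Of 20 cytosolic aminoacyl-tRNA synthetases 5 fell and none rose, Hars by 0.35, but with total-count scaling none fell and 3 rose. With TMM scaling 7.69% of all genes and 13.5% of those with enough counts passed lower.

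The promoter windows that follow show the element that ATF4 binds together with C/EBP proteins in genes on both sides of this split, Nupr1, Vldlr and Atf3 that rose and Asns that fell. Sequences are from RefSeq on GRCm38.p6, read along each gene's strand, and capitals mark a match to TGATGNAA on either strand, with up to 30 bases on each side. They lie at chr7:126625543-126625610 (Nupr1, minus strand), chr19:27216790-27216857 (Vldlr, plus strand), chr1:191183406-191183473 (Atf3, minus strand) and chr6:7693210-7693262 (Asns, minus strand).
Nupr1: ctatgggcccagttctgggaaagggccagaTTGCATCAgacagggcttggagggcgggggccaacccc
Vldlr: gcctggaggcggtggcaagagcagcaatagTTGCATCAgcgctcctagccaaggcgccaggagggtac
Atf3: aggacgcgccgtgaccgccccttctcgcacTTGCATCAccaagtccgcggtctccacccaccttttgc
Asns: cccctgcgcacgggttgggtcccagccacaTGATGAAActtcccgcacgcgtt

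In windows from 250 bases before to 50 after each gene's start, the letters occurred in 1304 of 32851 promoters (3.97%), belonging to 1219 of 27025 genes (4.51%). Of the 27 stress response genes 23 had a window, and 10 of these held a match (43.5%). Among the members that rose 5 of 13 held one, and among the others 5 of 10. Of the synthetase genes 5 of 12 held one, and of the serine and one-carbon genes 1 of 10. A match is a description of the letters and shows no binding.

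Lonp1, the matrix protease that also binds mtDNA, stood at 11040.1, 9131, 9827 and 8726 in β-Mfn1KO and at 21628, 22583, 20872, 21332 and 17867 in β-Mfn1/2DKO, with no overlap (1.11 ± 0.13, adjusted p = 4.4e-06). The matrix cochaperone Dnaja3 rose by 0.63 and the chaperone Trap1 by 0.35, while the inner membrane protease Yme1l1 fell by 0.37. In all, 6 of 20 mitochondrial chaperones and proteases rose and 2 fell (median −0.02), and with counts thinned to equal depth 4 rose and 4 fell. Before thinning, 17.5% of the genes with enough counts passed higher and 13.5% lower. Dnaja3 overlaps another gene on the opposite strand.

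Of 21 genes of mtDNA replication, transcription and packaging 5 rose and 2 fell, with a median of 0.04, where 17.5% of the genes with enough counts passed higher and 13.5% lower. With thinned counts 3 rose and 1 fell, and without replicates 4 and 5, 2 rose and none fell. Tfam, the packaging factor of mtDNA, stood at 1572, 1721, 1502 and 1666 in β-Mfn1KO and at 1669, 1694, 1701, 1634 and 1588 in β-Mfn1/2DKO. The groups overlapped fully, at 0.04 ± 0.06 (adjusted p = 0.72), and the sign turned with the authors' factors and with thinned counts. The mitochondrial topoisomerase Top1mt rose by 1.15 ± 0.25 (adjusted p = 0.0021) from 37.2 to 110.0 up to 129.8 to 234. The exonuclease Mgme1 rose by 0.43, but an opposite-strand neighbour with far more reads overlaps it, and Ssbp1, the single-stranded DNA binding protein, fell by 0.25 with all libraries and missed the threshold without replicates 4 and 5.

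Of 13 genes of mitochondrial nucleotide supply 4 rose and none fell, where 17.5% of the genes with enough counts passed higher and 13.5% lower. Slc25a33, a pyrimidine nucleotide carrier, stood at 195, 192, 119 and 147 in β-Mfn1KO and at 368, 405, 294, 438 and 438 in β-Mfn1/2DKO (1.25 ± 0.15, adjusted p = 4.4e-06). The related carrier Slc25a36 rose by 0.39. Slc25a33 lies 1.84 Mb from Mfn2, in the region described below. Of 12 regulators of mitochondrial biogenesis 4 rose and none fell, 2 with thinned counts, with Nrf1, a transcription factor of respiratory genes, at 1996, 1903, 1721 and 1677 against 3657, 3974, 3539.6, 3149 and 2726 (0.90 ± 0.12, adjusted p = 1.1e-05). Pparg rose by 0.63.

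Of 18 fusion and fission genes, in a list without a stable direction, 2 rose and 5 fell, and with total-count scaling 5 rose and 1 fell. Gdap1, a fission factor, fell by 0.31 there with TMM scaling. At ER-mitochondria contact sites 7 of 13 genes rose and 1 fell, with a median of 0.25, where 17.5% of the genes with enough counts passed higher, but 2 rose and 1 fell both with thinned counts and with the authors' factors. Itpr2, an ER calcium release channel, stood at 790.0, 759, 939 and 942 in β-Mfn1KO and at 1852, 1830.5, 1891, 1798 and 2150.1 in β-Mfn1/2DKO (1.15 ± 0.17, adjusted p = 4.1e-05). The sorting protein Pacs2 rose by 0.28, but missed the threshold with thinned counts (adjusted p = 0.054), with the authors' factors (0.094) and in female libraries alone (0.13).

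Of 23 genes of fatty acid oxidation and its PPAR-driven partners 11 rose and 2 fell (median 0.31), where 9.67% of all genes and 17.5% of those with enough counts passed higher. Without replicates 4 and 5, 6 rose and 1 fell, and with thinned counts 7 rose and 2 fell. Cpt1a, which commits long-chain fatty acids to mitochondrial entry, stood at 1764, 1490.3, 1714 and 1924 in β-Mfn1KO and at 3690.0, 3319, 4026, 3886 and 4286 in β-Mfn1/2DKO (1.16 ± 0.13, adjusted p = 2.2e-06). Hadh, a β-oxidation enzyme that also restrains insulin secretion, stood at 20964, 25566, 26342 and 29009 against 15867, 17111, 16464, 13164 and 11705 (−0.78 ± 0.12, adjusted p = 9.5e-05). The groups did not overlap in either gene. The lipid droplet protein Plin2 rose by 1.21 (0.90 without replicates 4 and 5) and the thiolase Acaa2 by 0.72. Of the lipase inhibitors, Angptl4 rose by 2.85 ± 0.70 (adjusted p = 0.0058) from 2.79 to 19.4 up to 50.8 to 118. Angptl8 stood at 38.5 to 94.9 against 88.9 to 144, overlapping, and missed the threshold at 0.94 ± 0.33 (adjusted p = 0.052). Some alternatives passed it higher, such as the 9 libraries alone (adjusted p = 0.029), DESeq2 (0.015) and the sex covariate (0.019). Others did not, such as thinned counts and the fit without replicates 4 and 5.

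Of 28 genes of cholesterol and fatty acid synthesis 19 fell and 1 rose, with a median of −0.35, against 15 and 1 without replicates 4 and 5 and 11 and 1 with total-count scaling. Scd2, a fatty acid desaturase, stood at 9092, 8208, 9740.3 and 9114 in β-Mfn1KO and at 4622, 4634, 3691, 3938 and 3436 in β-Mfn1/2DKO (−1.15 ± 0.13, adjusted p = 1.5e-06). The regulators Srebf1 and Insig1 fell by 0.76 and 0.63, and the sterol enzyme Idi1, which shares 23.6% of its stretches with other genes, by 0.70. In the TCA cycle Fh1, fumarate hydratase, fell by 1.06 (8835 to 10440.2 against 3787 to 4936) and Dld by 0.31, while Suclg2 rose by 0.50. Of 26 genes of pyruvate oxidation and the TCA cycle 3 rose and 6 fell, and of 19 of glycolysis 3 rose and 7 fell. Pgam1, which shares 34.9% of its stretches with other genes, fell by 0.35. Total-count scaling turned these counts of genes to 6 and 1 and to 4 and 1. With TMM scaling 17.5% of the genes with enough counts passed higher and 13.5% lower.

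Of 84 cytosolic ribosomal proteins 32 rose, 1 fell and 51 did not pass, with a median of 0.20, and 31 rose without replicates 4 and 5. Rpl13 stood at 17324, 20023, 16036 and 19232 in β-Mfn1KO and at 26675, 28477, 24139, 24617 and 23187 in β-Mfn1/2DKO, with no overlap between the groups (0.49 ± 0.08, adjusted p = 0.00024). It shares 21.6% of its stretches with other genes. Of 78 mitochondrial ribosomal proteins 11 rose and 8 fell (median 0.01), and with DESeq2's size factors 7 rose and 11 fell. With TMM scaling 17.5% of the genes with enough counts passed higher and 13.5% lower.

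Of 20 targets of hypoxia-inducible factors 8 rose and 3 fell, and 8 rose and 1 fell without replicates 4 and 5. With all libraries 17.5% of the genes with enough counts passed higher and 13.5% lower. Bhlhe40, a repressor of clock genes, rose by 0.67, Pdk1, the kinase that blocks pyruvate dehydrogenase, by 0.49, and Adm, the peptide adrenomedullin, by 3.42 from 5.58 to 11 up to 69.5 to 138. Of 21 p53 targets and BCL2 family genes 9 rose and none fell, with Trp53inp1 at 1.05, Phlda3 at 1.48 and the pro-apoptotic Bcl2l11 at 0.46, but without replicates 4 and 5, 4 rose and 1 fell, and the change of Phlda3 was 0.79. Of 22 antioxidant genes 3 rose and 8 fell (5 and 3 with total-count scaling). Catalase (Cat) rose by 1.04, and the peroxiredoxin gene Prdx1 and the sulfiredoxin gene Srxn1 fell by 0.47 and 0.70.

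**Figure D4:**
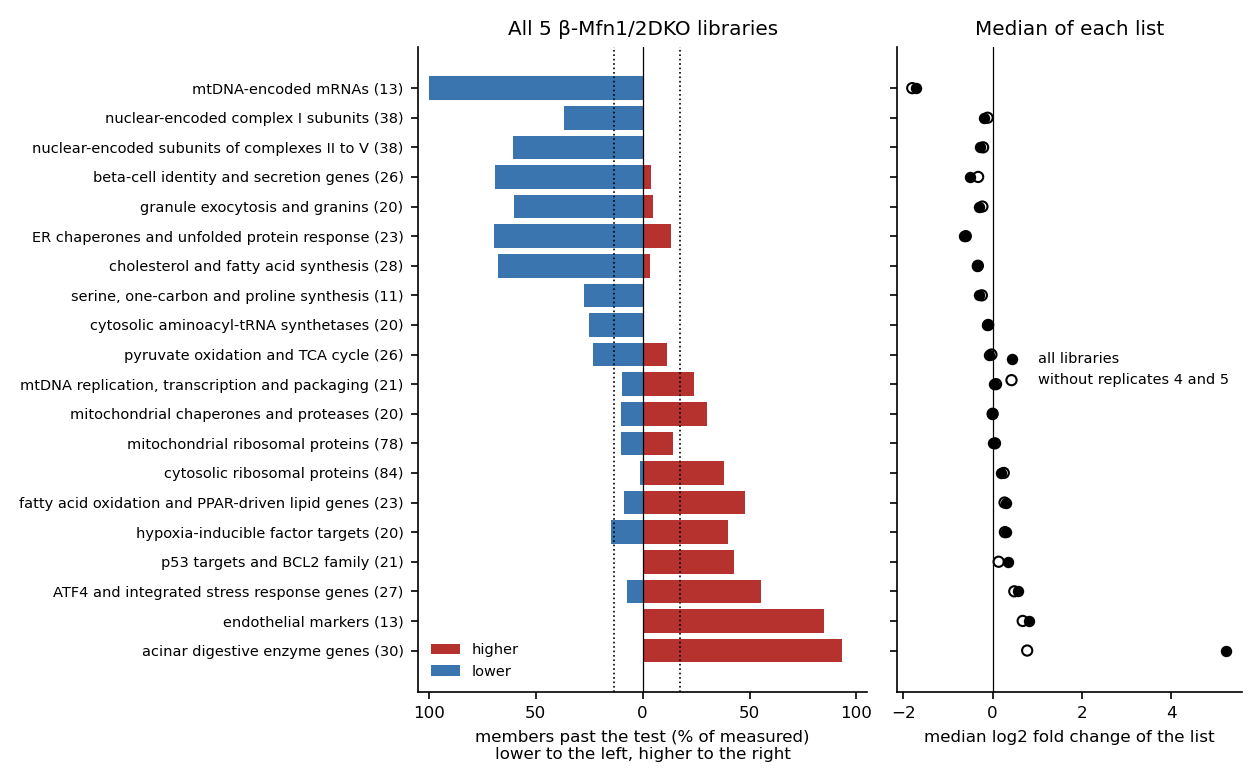
Left, percent of the measured members of 20 gene lists that passed an adjusted p of 0.05, lower to the left and higher to the right, with dotted lines at the 13.5% and 17.5% of the 15267 kept genes that passed in each direction (31.0% in all). Right, the median log2 fold change of each list with all libraries and without β-Mfn1/2DKO replicates 4 and 5. The mtDNA mRNAs and the ER chaperones hold their medians without these libraries, while that of the acinar genes moves from 5.23 to 0.77, and another scaling turns the balance of the lists for synthetases, the TCA cycle and mitochondrial ribosomal proteins.

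Markers of other cell types moved with the genotype, and their part in the results above was not tested. Of 30 acinar genes 28 rose with all libraries (median 5.23) and none without replicates 4 and 5, while 25 rose in the female libraries alone, which also leave out these replicates (median 1.46), the summed level being 7099 to 44724 in β-Mfn1KO and 29303 to 3105610 in β-Mfn1/2DKO. The 3 Reg genes of 6 and the 3 erythroid genes of 5 that rose, and 3 of the 4 duct genes of 7 that rose, likewise did not pass without these libraries, and in the female libraries alone 2 Reg, no erythroid and 3 duct genes rose. Endothelial markers did: 11 of 13 rose, 10 without replicates 4 and 5, with a summed level of 7960 to 8609 in β-Mfn1KO and 11683 to 18227 in β-Mfn1/2DKO. Pecam1, an adhesion molecule of vessels, stood at 821, 718, 571 and 679 in β-Mfn1KO and at 1174, 1258, 964, 1595 and 1424 in β-Mfn1/2DKO (0.88 ± 0.14, adjusted p = 0.00012). The endothelial cadherin Cdh5 rose by 0.95, the receptor Kdr by 0.81 and the coreceptor Eng by 0.93. Of 16 immune markers none passed, of 10 stromal markers 1 rose and of 6 Schwann cell markers none passed. In the female libraries alone 4 immune, 6 stromal and 4 Schwann cell markers rose, where 8.52% of all genes passed higher. With all libraries 9.67% of all genes passed higher.

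Genes beside Mfn2 on chromosome 4 were called more often than others. Within 5 Mb of Mfn2 (chr4:147873599-147904704), and leaving out Mfn2 itself, 31 of 178 tested genes were called (17.4%), against 109 of 1400 on the rest of the chromosome (7.79%) and 6.71% of all genes. Among the genes with enough counts the shares were 27.9% and 11.0%. Of the 31 called genes 12 were higher and 19 lower, and 10 were zinc-finger genes.

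Zfp990, a zinc-finger gene 2.33 Mb from Mfn2, was at 0, 0, 4.97 and 0 in β-Mfn1KO and at 415, 442, 419.5, 308 and 376 in β-Mfn1/2DKO. The β-Mfn1KO value rests on 2 counts, and the ratio of the groups was 292 with a 95% counting interval of 80.9 to 2416. Masp2, a complement protease gene 0.698 Mb away, was at 5.58, 0, 0 and 0 against 87.3, 86.2, 56.8, 43.1 and 62.9, a ratio of 50.4 with an interval of 13.9 to 417, also on 2 counts, and it shares 51.4% of its stretches with other genes. These intervals cover counting error only. Miip, the neighbour 0.005 Mb from Mfn2, stood at 436, 409.7, 432 and 396 in β-Mfn1KO and at 168, 165, 135, 124 and 126 in β-Mfn1/2DKO (−1.54 ± 0.20, adjusted p = 7.1e-06).

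The pseudogene Znf41-ps fell by 3.35 and Zfp991 by 2.15, and most stretches of both occur in other genes. At 16 of the 31 called genes of the region the Ctrl library replicate 1 went with β-Mfn1KO, with Zfp990 at 0 against 137 to 368 in the other 5 Ctrl libraries. The β-Mfn1/2DKO mice carry the floxed Mfn2 allele with the DNA linked to it and the β-Mfn1KO mice do not. Between these groups alone, the loss of Mfn2 and the origin of the linked region cannot be told apart. The pattern that chose the 16 genes places Ctrl replicates 2 to 6 on the side of β-Mfn2KO and β-Mfn1/2DKO. Their side is therefore fixed by the choice and is no separate result. Miip, one of the 16, stood at 140 to 265 in Ctrl replicates 2 to 6 and at 118 to 178 in β-Mfn2KO. Slc25a33 lacked this pattern, at 116 in Ctrl replicate 1, 125 to 149 in replicates 2 to 6 and 135 to 172 in β-Mfn2KO. The origin of the region was not tested.

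**Figure D5:**
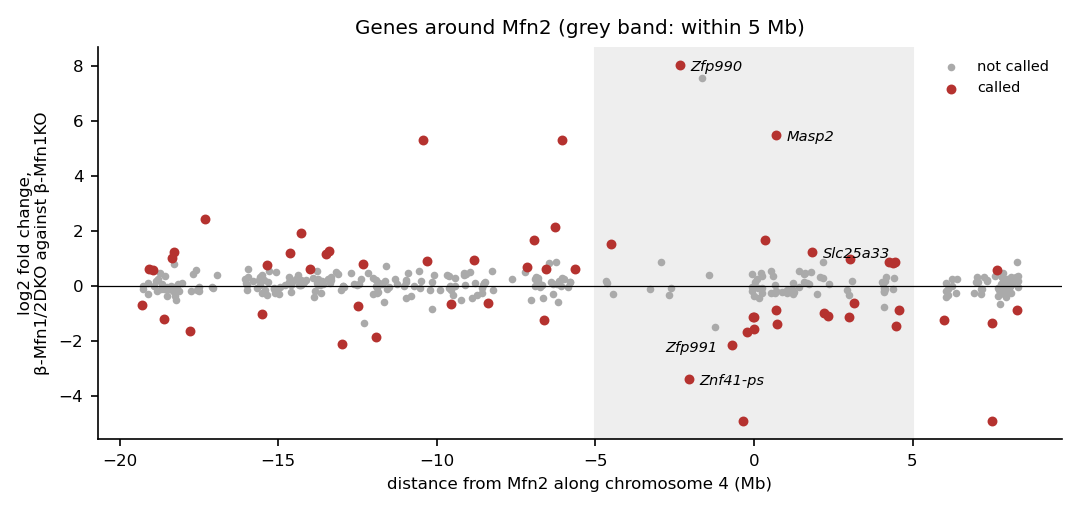
Log2 fold change between β-Mfn1/2DKO and β-Mfn1KO (y axis) of genes along chromosome 4 by distance from Mfn2 in Mb (x axis), called genes in red. The grey band spans 5 Mb on each side, where 31 of 178 tested genes were called.

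The effect of losing Mfn2 was then compared between islets without and with Mfn1, as (β-Mfn1/2DKO minus β-Mfn1KO) minus (β-Mfn2KO minus Ctrl), a difference whose 2 effects share no library. It was past an adjusted p of 0.05 with a fold over 1.5 for 784 genes (2.74% of those tested), 388 (1.36%) higher and 396 (1.38%) lower. Of these 716 were also called for β-Mfn1/2DKO against β-Mfn1KO, all with the same sign. The difference contains that comparison, so this overlap and shared sign follow largely from its form and give no separate evidence. Where Mfn1 was intact, 15 genes (0.0524%) were called for β-Mfn2KO against Ctrl by edgeR and 1208 passed an unadjusted p of 0.05, and 14 of the 15 were called in the same direction in the double knockout comparison. Without Ctrl replicate 1, a setting added after the data were seen, 870 genes passed for the difference, 734 of them among the 784. For Mfn2 itself the effects did not differ beyond their error (difference 0.09, adjusted p = 0.77).

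For the mtDNA mRNAs, 11 of 13 fell further where Mfn1 was absent, at an adjusted p of 0.05 that 5.92% of all genes passed, 2.88% higher and 3.03% lower. mt-Nd2 changed by −0.57 with Mfn1 and by −1.85 without it (difference −1.28, adjusted p = 1.4e-05), and mt-Co1 by −0.68 and −1.55 (difference −0.86, adjusted p = 0.00075). mt-Nd5 and mt-Nd4l did not pass (adjusted p = 0.052 and 0.17). The share of counts fell by 0.709 percentage points from Ctrl to β-Mfn2KO, against 1.14 points from β-Mfn1KO to β-Mfn1/2DKO. The difference passed for 14 of 26 β-cell genes, all lower, and for 7 of 27 stress response genes, all higher. Of the 23 ER genes it passed lower for 12 and higher for 2. Slc2a2 changed by 0.18 with Mfn1 and by −1.51 without it (difference −1.69, adjusted p = 0.00012), and Gpt2 by −0.02 and 1.81 (difference 1.83, adjusted p = 1.3e-06). Slc28a2, a nucleoside transporter, changed by 0.22 and −1.73 (difference −1.95, adjusted p = 0.00035), and it shares 24.7% of its stretches with another gene. Areg changed by 3.43 and 5.998, and this difference of 2.56 did not pass (adjusted p = 0.30), nor did that of Ddit3 (1.19, adjusted p = 0.11). The 3.43 leans on β-Mfn2KO replicate 3, where Areg stood at 2121. It stood at 56.4 to 177 in the other β-Mfn2KO libraries and at 14.6 to 65.6 in Ctrl.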

How the data were processed

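Islet RNA was sequenced as 151-base read pairs. Per the labels' processing notes, the submitters trimmed and checked reads with cutadapt 2.3 and FastQC 0.11.8, aligned and counted them with STAR 2.6.1b and RSEM 1.3.1 on GRCm38, and used DESeq2 1.26.0. The authors deposited expected counts per gene, given as whole numbers, and a second table of depth-normalized counts (signal units), counts divided by factors that vary by gene within a library, which served only as an alternative scaling. Strand handling is not given in the sources used here. All 20 libraries were mapped by their labels, and 0 columns of per-sample values were set aside.

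edgeR 4.0.16 (R 4.3.3) was fitted to the counts (TMM, quasi-likelihood test, 1 coefficient per group over 20 libraries, 28632 genes, no filter beyond genes at 0 in all). Genes with an adjusted p under 0.05 that moved by more than 1.5-fold are called, and lists were counted at an adjusted p under 0.05. Shares were compared with exact permutation tests (SciPy 1.17.1). Tables and plots used pandas 2.3.3, NumPy 2.4.6 and Matplotlib 3.10.9. Gene positions are those of GENCODE M21. Intervals cover counting error only. Totals ran from 12400687 to 122947313 counts, so low genes are least precise in the shallow β-Mfn1KO libraries. Tested on simulated counts of this comparison over 28632 genes, 79 of 107 genes changed by 1 and 78 of 93 changed by 1.5 on the log2 scale were recovered, with 5 others called. The study gives the number of libraries in a group as its number of mice. No pair of libraries was identical.

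The members and lists were chosen with earlier results of these data known. Named genes are Mfn1, Mfn2 and the 13 mtDNA mRNAs; for each direction the 12 genes of largest fold that are called, average at least 100 normalized counts, do not overlap, stay called without β-Mfn1/2DKO replicates 4 and 5, have no Gm or Rik symbol and mark no other cell type; up to 5 genes of smallest p and the most abundant of each of 50 lists; up to 5 per direction for the difference of the Mfn2 effects; and 11 genes that the paper's text names. The text shows part of these 310 genes and single list members beside a count, and some genes and sequences are not reported here. Alternatives were other scalings (DESeq2 size factors, total counts, the authors' factors), DESeq2 1.42.0, a filter on low counts, thinned counts, covariates for sex, acinar score or replicate number, and fits to fewer libraries.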

Additional observations from a re-analysis of the deposited data

Results flagged for a closer look

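For 92 of the 127 named genes the effect of losing Mfn2 differed between islets without and with Mfn1 in edgeR's test of the difference (adjusted p under 0.05). Of all genes tested 5.92% passed it. The named genes were chosen in part by their changes in these same data, so their share is no result about them. The difference is a log2 fold change, the effect without Mfn1 minus the effect with it, and it is the same contrast as the effect of Mfn1 loss without minus with Mfn2. Without Ctrl replicate 1 all 92 still passed, and 101 passed in all. For genes at which that library went with β-Mfn1KO this is no check, since it removes the control most like β-Mfn1KO. Rab6b moved from −1.42 to −3.10 (adjusted p from 0.47 to 0.0015) and Zfp990 from 7.58 to 7.85. The mtDNA mRNAs differed by mt-Nd1 −1.09, mt-Nd2 −1.28, mt-Nd3 −1.504, mt-Nd4 −1.03, mt-Nd6 −0.72, mt-Cytb −0.95, mt-Co1 −0.86, mt-Co2 −0.88, mt-Co3 −0.87, mt-Atp6 −0.94 and mt-Atp8 −1.89. Genes of β-cell identity and exocytosis differed by Ins1 −0.84, Ins2 −1.31, G6pc2 −1.19, Ucn3 −1.36, Ero1lb −1.82, Slc2a2 −1.69, Mafa −1.43, Sytl4 −1.28, Scg3 −0.73, Rab3a −0.62, Cpe −0.40 and Ptprn −0.62. For Ins1 the part from Ctrl to β-Mfn2KO also compares mice with the Cre knock-in at Ins1 with controls that pool mice with and without it, and every Ctrl library (1065890 to 1962280) lay above every β-Mfn2KO library (650437 to 844696). Among ER genes the differences were Sdf2l1 −1.53, Manf −1.02, Dnajb9 −1.12, Fkbp11 −1.85, Edem1 0.47 and Ern1 0.55. Among stress response genes they were Stc2 3.77, Nupr1 2.77, Gpt2 1.83, Trib3 1.68, Sesn2 0.69 and Vldlr 0.63. β-Mfn2KO replicate 4 held Nupr1 at 27560 (2189 to 9772 in the others of its group) and Stc2 at 146 (29.6 to 59.4).

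For nuclear-encoded respiratory chain genes the differences were Ndufa4 −0.78, Ndufa1 −0.74, Ndufc2 −0.43, Sdhc −0.41, Uqcrb −0.63, Atp5g1 −0.55 and Cox7b −0.59. For fuel use they were Cpt1a 1.09, Plin2 0.95, Acaa2 0.63, Hadh −0.78, Suclg2 0.54, Fh1 −1.05 and Dld −0.25, and for sterol and fatty acid synthesis Scd2 −1.10, Srebf1 −0.69, Insig1 −0.63 and Idi1 −0.78. For mitochondrial upkeep, dynamics and contact sites they were Lonp1 1.02, Dnaja3 0.57, Slc25a33 1.03, Nrf1 0.82, Itpr2 1.21, Yme1l1 −0.28 and Gdap1 −0.30, and for the ribosomal protein gene Rpl13 0.42. Hypoxia, p53, progenitor and antioxidant genes gave Bhlhe40 0.63, Pdk1 0.62, Trp53inp1 0.81, Bcl2l11 0.37, Phlda3 1.49, Myc 1.68, Hes1 0.50, Cat 0.72, Prdx1 −0.48 and Srxn1 −0.62. Endothelial markers gave Eng 0.81, Cdh5 0.85, Pecam1 0.94 and Kdr 0.75.

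The other genes of large change gave Vmn2r3 4.19, Slc38a3 4.07, Vrtn 3.91, Phyhd1 3.21, Olfr330 2.14, Fam196a 1.99 and Eno1b 7.36 among those higher, where Ctrl replicate 1 was like β-Mfn1KO in Eno1b (29.1 against 2450.0 to 5821 in the other Ctrl libraries), and Ttyh1 −2.17, Bambi-ps1 −2.21, Dapl1 −1.55, Rhd −1.81, Mir670hg −1.66, Slc28a2 −1.95 and Fer1l6 −1.89 among those lower. For some of these genes the effect with Mfn1 leans on 1 β-Mfn2KO library. Replicate 3 held Vmn2r3 at 202 (22.3 to 26.4 in the others), Vrtn at 102 (13.4 to 26.4) and Fam196a at 899 (243 to 345). Replicate 4 held Slc38a3 at 108 (13.4 to 25.8). Beside Mfn2, Zfp990 7.58, Masp2 4.82 and Miip −1.09 were measured, where Zfp990 and Masp2 rest on 2 counts each in β-Mfn1KO and Ctrl replicate 1 was like β-Mfn1KO.

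In 13 of 256 groups of normalized counts (5.08%) 1 library stood apart from the others by Dixon's 95% criterion, which chance meets in about 1 of 20 groups. In β-Mfn1KO these were replicate 4 for mt-Nd2 (42828), mt-Nd5 (54956) and Yme1l1 (6844), replicate 3 for Zfp990 (4.97), and replicate 1 for Ttyh1 (3869) and Masp2 (5.58). In β-Mfn1/2DKO they were replicate 5 for Eno1b (1915), Eno1 (6063), Edem1 (6967), Itpr2 (2150.1) and Gdap1 (3019.8), replicate 2 for Mgme1 (525) and replicate 3 for Ern1 (18955). Of the 13, 5 were in replicate 5 of β-Mfn1/2DKO, the library richest in acinar transcripts.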

How the results depend on the processing

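All 13 mtDNA mRNAs stayed past the test in every alternative, and leaving out single libraries gave 1560 to 2004 called genes, 604 to 870 genes for the difference of the Mfn2 effects, 17 to 19 β-cell genes, 14 to 16 stress response genes and a difference in mtDNA share of −1.23 to −1.09 points. Without β-Mfn1/2DKO replicates 4 and 5, 1277 genes were called (718 higher, 559 lower) and the share differed by −1.18 points (exact permutation p = 0.0571, the smallest possible). Without a fold threshold 4971 genes passed. In female libraries alone, 1250 genes passed for the difference of effects (784 higher, 466 lower), and the share differed by −1.29 points (exact permutation p = 0.20, with 2 double knockout libraries). Total-count scaling called 2447 genes, 79.6% of them higher against 60.2%, DESeq2 called 2080 and thinned counts 1666. With the acinar score as covariate 1375 genes were called, 1214 of them among the 1921. With sex as covariate 1574 were called, 1508 of them among the 1921.

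Same-numbered libraries correlated at 0.13, 0.09, −0.02 and 0.21, and 1 of 4 correlated best with its own number, so the numbers were not taken as pairs. With the replicate block 1712 genes were called, 635 for the difference of effects, 13 mtDNA mRNAs, 20 β-cell genes and 17 stress response genes passed, and the share differed by −1.17 points (exact permutation p = 0.125, the smallest possible with 4 pairs).

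Of 127 named genes 124 passed the test, where 17.4% of all genes passed in either direction. The named genes were chosen in part by their p and fold in this comparison, so their share is no result about them. Those of largest fold were also chosen for staying called in an alternative fit. The counts that follow describe these chosen genes and are no separate check of the comparison. Over 2666 values of single genes under the alternatives 2620 kept direction and side of the threshold, 28 lost it and 15 gained it. The sign of 3 turned, none past the test: Mfn1 (−0.074) and Tfam (−0.090) with the authors' factors and Tfam (−0.042) with thinned counts, and the cause was not tested. Fgf21 lost its call most often. Depth limits the low genes, whose β-Mfn1KO values rest on few counts.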

Other observations

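Gene lists outside the comparisons above had these counts in β-Mfn1/2DKO against β-Mfn1KO, where 9.67% of all genes passed higher and 7.69% lower, and 17.5% and 13.5% of those with enough counts. Of 20 lysosomal genes 1 rose and 6 fell, of 22 autophagy and mitophagy genes 3 rose and 1 fell, and of 20 cell cycle genes 1 rose and 4 fell. Of 29 genes of mitochondrial protein import 3 rose and 5 fell, of 10 of cristae organisation none rose and 4 fell, of 11 of mitochondrial calcium uptake 3 rose and 2 fell, of 17 of iron-sulfur cluster assembly 4 rose and 1 fell, and of 13 of coenzyme Q synthesis 2 rose and 1 fell. With total-count scaling the balance turned for the lysosome (6 rose, none fell), import (9 and 2) and cristae (2 and none). With thinned counts 1 import and 1 iron-sulfur gene rose.

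Of 15 channels and pumps for potassium and calcium 4 rose and 3 fell, of 16 clock genes 2 rose and 1 fell, of 15 immediate early genes 2 rose and 3 fell, and of 20 genes of mitochondrial RNA processing 2 rose and 1 fell. Of 21 interferon-stimulated genes 1, Ifi44, rose, and none did without replicates 4 and 5. In the female libraries alone 6 rose and 1 fell.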
